A study of Mus musculus with 6 samples.

Results

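The 35 genes described here are expressed as a cell copies its DNA and divides. They comprise 19 genes of S phase and 16 of mitosis, and all 35 were found by exact symbol among the 54087 gene rows of the files. RNA was measured in 6 libraries of germ cells from male C57BL/6 mice aged 10 days post partum. The cells were the bright and med fractions of Id4-GFP, a reporter for the stem cell factor Id4, and the labels mark them as approximately SSC, the spermatogonial stem cells. Of these, 3 came from Dnmt3A KO/KO and 3 from Dnmt3A WT/WT mice. All 6 share the strain, the reporter and the gate. The construction of the KO allele is not stated in those labels. Neither do they say that the numbered replicates are separate animals, so the p-values reflect spread among libraries that may be technical.

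A dividing cell switches on its genes in waves. E2F transcription factors, freed from the retinoblastoma protein in late G1, raise the genes that load the replicative helicase onto origins and supply nucleotides. Later the B-Myb and FoxM1 factors, working with the MuvB complex, raise the cyclins, kinases and kinetochore proteins of mitosis. Spermatogonia divide by mitosis, and in mice the stem cells give rise to progenitor and then Kit-positive differentiating spermatogonia that divide repeatedly before meiosis. Dnmt3a is a de novo DNA methyltransferase, and the comparison asks how its loss alters RNA levels in these cells.

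Gene rows summed to between 43951664 and 61749155 counts in KO/KO and between 42681201 and 48423509 counts in WT/WT libraries. Levels are given in CPM, the counts scaled to library sizes corrected by TMM (trimmed mean of M values). Dnmt3a itself stood at 90.2, 104 and 99.6 CPM in KO/KO, against 215, 193 and 188 CPM in WT/WT libraries, counted over the whole gene (log2 fold change -1.02, SE 0.09, edgeR adjusted p = 0.000222). Germ cell markers were abundant throughout, with 5 listed markers summing to between 1126 and 1247 CPM in KO/KO and between 1284 and 1341 CPM in WT/WT, and 1 of them, Sall4, was called lower (edgeR adjusted p = 0.0485). Sertoli markers, 5 of 5 present, summed to between 318 and 463 CPM in KO/KO and between 314 and 508 CPM in WT/WT. Leydig, peritubular myoid and macrophage markers summed to at most 17.9 CPM in any library, though 1 of 4 macrophage markers, Cd68, was called higher (3.93, 3.51 and 4.78 CPM in KO/KO, against 1.21, 1.45 and 1.77 CPM in WT/WT, edgeR adjusted p = 0.00402). The macrophage list summed to between 3.79 and 4.8 CPM in KO/KO and between 1.32 and 2.21 CPM in WT/WT, with Adgre1 at 0 in every library but WT/WT replicate 3. Of 4 endothelial markers Cdh5 and Kdr were higher, and the list summed to between 67.4 and 105 CPM in KO/KO and between 18.3 and 24.6 CPM in WT/WT, while Pecam1 stood between 3.12 and 5.23 CPM in KO/KO and between 2.7 and 4.88 CPM in WT/WT. The part of any of these cells in the results below was not tested.

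In bulk RNA, fewer dividing cells and less RNA of these genes in each cell cannot be told apart. All 35 genes passed the filter on low counts, and none passed the test between genotypes. This was the edgeR quasi-likelihood test with Benjamini-Hochberg adjustment over 21314 genes and a threshold of 0.05, under which 14.8% of all genes were called, 8.33% higher and 6.42% lower in KO/KO. At an unadjusted p under 0.05 there were 9 members, where 29.5% of all genes lay under that value. Of these 2 were higher, against 15.8% of all genes, and 7 were lower, against 13.6% of all genes. Every KO/KO library lay above every WT/WT library for 1 member, Cdk2, against 18.2% of all genes. Every KO/KO library lay below every WT/WT library for 6 members, against 17.5% of all genes: Ccne2, Cdc6, Bub1, Aurkb, Cenpf and Ttk. The shares of members without overlap are near or under those of all genes. Of the fitted log2 fold changes, 27 of 35 were negative, against 49.6% of all genes, with a median of -0.08 for S phase and -0.21 for mitotic members, against 0.00 for all genes. For 31 of 35 members the 95% interval of the fold change lay within 2-fold either way, and the exceptions were Cdc6, Rrm2, Aurkb and Birc5, whose intervals reached lower.

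Other settings called some members. DESeq2 called 4 members lower in KO/KO (Cdc6, Bub1, Aurkb and Ttk), where it called 7.99% of all genes lower. Limma-voom called Cdc6 alone, with 6.58% of all genes lower. Without a filter on low counts, edgeR called 10 members lower, where 5.24% of 36553 genes were called lower. These were the S phase genes Ccne2, Mcm7, Cdc6 and Rrm2 and the mitotic genes Ccna2, Bub1, Aurkb, Birc5, Cenpf and Ttk. Their log2 fold changes hardly differed from the filtered fit, at -0.71 for Cdc6, -0.47 for Rrm2 and Birc5 and -0.34 for Ccna2 in both. The added calls thus came with smaller p-values and not with larger differences, and what lowered the p-values was not tested. For Rrm2 and Ccna2, KO/KO replicates 1 and 3 lay within the WT/WT range.

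A single library stood apart in the levels of these genes. KO/KO replicate 2 had the lowest level of the 6 libraries for 30 of 35 members, among them all 16 mitotic genes, where it was lowest for 23% of all genes tested. The other 5 members (Ccne1, Cdk2, Mcm3, Mcm10 and Tyms) were lowest in WT/WT replicate 1. The 35 genes together summed to 5486, 3781 and 5955 CPM in KO/KO, against 5049.8, 5330.2 and 5999 CPM in WT/WT libraries. Without KO/KO replicate 2 the fold changes split into 17 positive and 18 negative, with medians of 0.03 for S phase and -0.03 for mitotic members. Top2a then passed the test as higher (log2 fold change 0.35, edgeR adjusted p = 0.0401, against 0.695 with all libraries and 0.7 to 0.869 without any other one; over all other settings it ran from 0.457 to 0.869), where 7.34% of all genes were called higher. Without KO/KO replicate 1, by contrast, Cdc6, Bub1 and Aurkb passed as lower (edgeR adjusted p = 0.0056, 0.0328 and 0.045), where 6.17% of all genes did. Among WT/WT libraries replicate 3 was highest for 33 of 35 members, against 35.4% of all genes. In total gene counts KO/KO replicate 2, at 47886897, lay between the other KO/KO libraries.

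**Figure D1:**
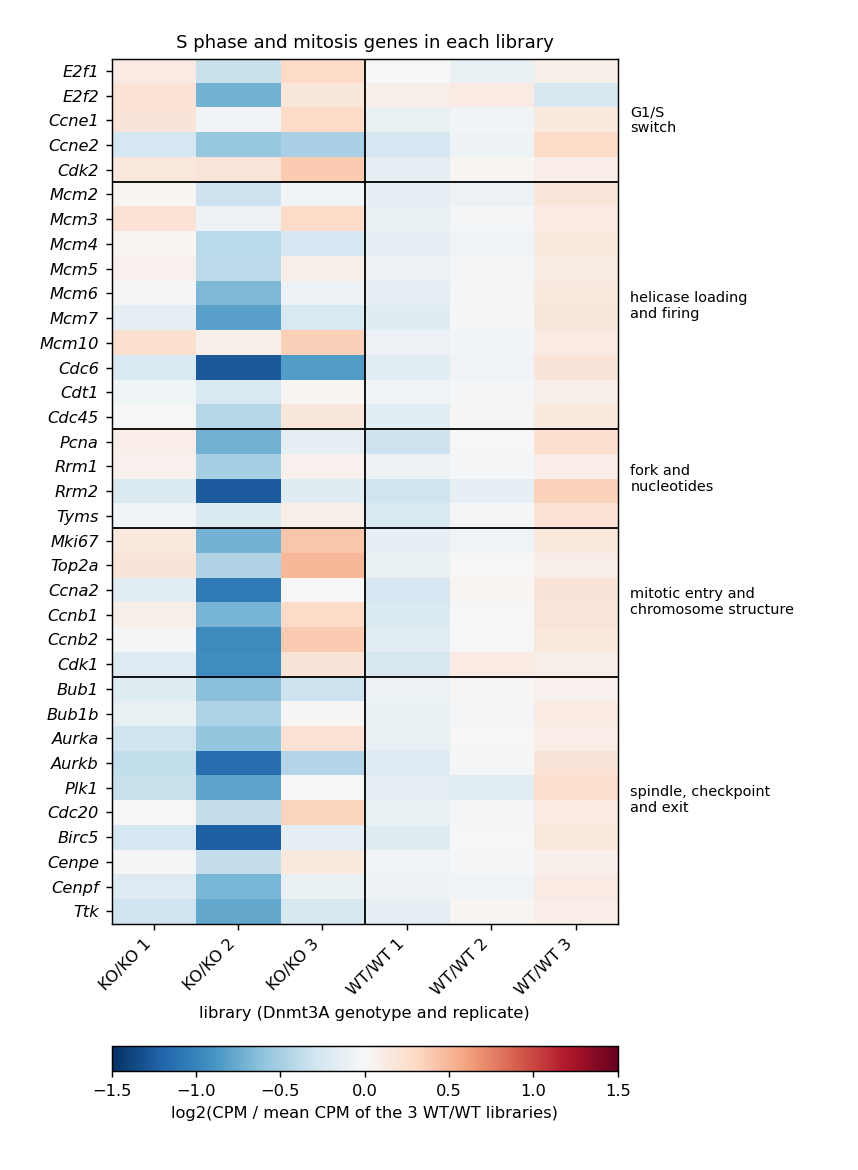
Level of each of the 35 genes (rows, by role) in each library (columns, KO/KO left and WT/WT right), as log2 of its CPM over the mean CPM of the 3 WT/WT libraries, blue for lower and red for higher. KO/KO replicate 2 is the bluest column for most genes and is the lowest library for 30 of 35.

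None of the 5 genes of the G1/S switch passed the test, though Cdk2 and Ccne2 had groups that did not overlap. E2f1, an activating E2F, stood at 46.6, 33.9 and 52.6 CPM in KO/KO, against 42.9, 39.9 and 45.4 CPM in WT/WT libraries. The KO/KO libraries lay on both sides of all WT/WT libraries, and the log2 fold change was 0.05 (95% interval -0.28 to 0.39). E2f2, a second activator, was scarce at 5.4 ± 1.7 CPM in KO/KO and 5.62 ± 0.747 CPM in WT/WT (SD, n = 3 each). Cdk2, the kinase that cyclin E activates (chromosome 10, 128697939 to 128705031, GRCm38), stood at 52.1, 53 and 61.6 CPM in KO/KO, against 42.7, 47.7 and 50 CPM in WT/WT libraries. The groups did not overlap, but the difference was small (log2 fold change 0.25, SE 0.10) and missed the threshold (edgeR adjusted p = 0.144). The E cyclins had fold changes of opposite sign. Ccne1 averaged 14.4 ± 1.69 CPM in KO/KO and 13 ± 1.24 CPM in WT/WT. Ccne2 averaged 15.6 ± 1.77 CPM in KO/KO and 21 ± 4.04 CPM in WT/WT (log2 fold change -0.43, SE 0.16, edgeR adjusted p = 0.0981). Ints8 exons on the opposite strand cover 17.4% of the Ccne2 exon bases. Whether reads were counted by strand is not stated, so reads of such partners cannot be told apart here.

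Helicase genes were abundant in both genotypes. Mcm2 to Mcm7 encode the 6 subunits of the ring that unwinds DNA at the fork. They had log2 fold changes between -0.36 (Mcm7) and 0.15 (Mcm3), with a median of -0.15 (-0.03 without KO/KO replicate 2), and none had groups that failed to overlap. Mcm3 stood at 305, 248 and 320.0 CPM in KO/KO, against 243, 258 and 285 CPM in WT/WT libraries, and was among the most abundant members per length at 77.6 CPM per kb of exon in KO/KO and 69.8 in WT/WT. Mcm7 stood at 234, 147 and 221 CPM in KO/KO, against 229, 256 and 291 CPM in WT/WT libraries. In KO/KO replicate 2 Mcm7 was well under every other library, while KO/KO replicate 1 lay inside the WT/WT range. Its exons overlap those of Ap4m1 and Cops6 on the opposite strand over 8.7% of their bases. The remaining subunits, Mcm2, Mcm4, Mcm5 and Mcm6, had fold changes of -0.10, -0.20, -0.06 and -0.23 on the log2 scale, each with an interval that spans 0.

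The loaders and activators of the helicase were less uniform. Cdc6, which with Cdt1 places the ring on origins, had the lowest fold change of the 35 genes. The gene (chromosome 11, 98907801 to 98923940) stood at 27.1, 13.2 and 17.7 CPM in KO/KO, against 28.1, 30.6 and 36.4 CPM in WT/WT libraries. KO/KO replicate 1 was just under the lowest WT/WT library and the other KO/KO libraries far below it (log2 fold change -0.71, SE 0.23, edgeR adjusted p = 0.0651). Left out in turn, the 6 libraries gave log2 fold changes between -1.03 (without KO/KO replicate 1, adjusted p = 0.0056) and -0.50 (without KO/KO replicate 2, adjusted p = 0.106), and the highest adjusted p was 0.21 (without WT/WT replicate 3). Cdt1 averaged 65.6 ± 6 CPM in KO/KO and 69.6 ± 3.92 CPM in WT/WT, a log2 fold change of -0.08 (95% interval -0.30 to 0.13). Mcm10, which helps the loaded helicase to fire (chromosome 2, 4989714 to 5012791), stood at 122, 109 and 133 CPM in KO/KO, against 97.4, 101 and 113 CPM in WT/WT libraries. Only KO/KO replicate 2 lay within the WT/WT range, and Mcm10 did not pass the test (log2 fold change 0.23, SE 0.10, edgeR adjusted p = 0.142). Cdc45, a part of the active helicase, averaged 59.8 ± 12 CPM in KO/KO and 62.4 ± 6.81 CPM in WT/WT.

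The genes of the fork and of nucleotide supply all had negative fold changes, between -0.47 and -0.05 on the log2 scale, and none of the 4 passed the test. Without KO/KO replicate 2 they ran from -0.19 (Rrm2) to 0.07 (Rrm1), 2 negative and 2 positive. Pcna, the sliding clamp of the polymerases, stood at 78.8, 44.5 and 66.5 CPM in KO/KO, against 59.5, 73.5 and 87.6 CPM in WT/WT libraries. Rrm2, the regulated small subunit of ribonucleotide reductase, stood at 23.4, 11.4 and 24 CPM in KO/KO, against 22, 25 and 34.5 CPM in WT/WT libraries. In both genes KO/KO replicate 2 was the lowest library and the other KO/KO libraries lay within the WT/WT range. The large subunit Rrm1 averaged 139 ± 29 CPM in KO/KO and 149.5 ± 9.73 CPM in WT/WT, and the thymidylate synthase gene Tyms 31.8 ± 3.31 and 32.9 ± 5.06 CPM in KO/KO and WT/WT.

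E2F motifs were frequent in the promoters of the S phase genes. Windows from 250 bases before to 50 bases after the annotated start were taken from RefSeq on GRCm38.p6 for 31 of the 35 members. E2f2 and Mcm7 have 2 windows each, and a gene was counted where any of its windows held the motif. RefSeq starts can differ from the GENCODE starts used for gene coordinates. The Cdc6 window lies wholly inside the GENCODE gene, which starts at 98907801. So do the windows of E2f1 and Mcm7 and a window of E2f2 in their genes. The E2F cores TTCCCGC and TTGGCGC were searched on both strands, and 1 or both were found in 9 of 17 S phase and 3 of 14 mitotic members, against 7.79% of all 27025 genes with a window. The windows of Cdc6, the lowest fold change, and Mcm3, the most abundant helicase subunit per length, are printed 5′ to 3′ on the gene's strand with capitals marking these cores and CCAAT, matches of which can share bases at their ends. Cdc6 (chr11:98907901-98908200, plus strand) holds 1 core on the opposite strand, and Mcm3 (chr1:20820263-20820562, minus strand) holds 3, of which the TTGGCGC matches on opposite strands overlap.
Cdc6: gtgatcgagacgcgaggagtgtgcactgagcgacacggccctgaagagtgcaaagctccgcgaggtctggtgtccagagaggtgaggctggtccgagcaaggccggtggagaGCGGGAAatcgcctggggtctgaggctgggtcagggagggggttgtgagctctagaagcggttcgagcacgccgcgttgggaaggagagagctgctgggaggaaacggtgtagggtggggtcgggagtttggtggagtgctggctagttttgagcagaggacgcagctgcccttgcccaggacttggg
Mcm3: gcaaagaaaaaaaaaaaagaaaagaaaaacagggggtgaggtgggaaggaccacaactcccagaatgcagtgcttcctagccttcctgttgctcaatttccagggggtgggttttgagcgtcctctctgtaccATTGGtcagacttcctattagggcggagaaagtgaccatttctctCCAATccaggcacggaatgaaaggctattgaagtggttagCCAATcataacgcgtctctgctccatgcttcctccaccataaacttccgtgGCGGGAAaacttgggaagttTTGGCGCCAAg
CCAAT boxes were present in 12 of 17 S phase members and in 41.1% of all genes with a window. By the window richest in CpG dinucleotides, the substrate of Dnmt3a, S phase members held a median of 21 and mitotic members 24.5, against 8 over all genes. The E2F cores each contain a CpG, and the share of all genes with a core was not matched for CpG content. These matches describe the letters of the windows only.

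**Figure D2:**
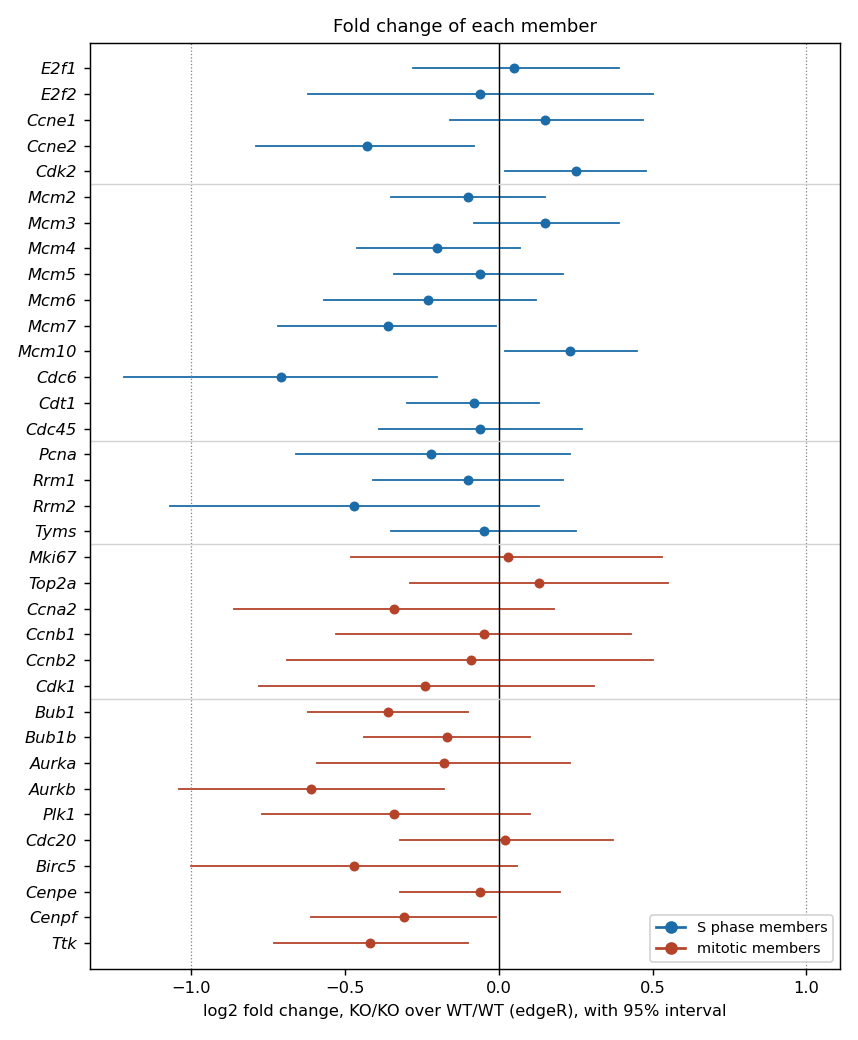
Fold change of each of the 35 genes between KO/KO and WT/WT on the log2 scale (x axis), with its 95% interval from the edgeR fit, in blue for S phase and red for mitotic members. Intervals of 31 genes lie within the dotted lines at 2-fold, and Cdc6 and Aurkb are the lowest points at -0.71 and -0.61.

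Mitotic genes varied more between the KO/KO libraries than between the WT/WT libraries. For all 16 the SD of log2(CPM + 0.1) was larger in KO/KO, as it was for 17 of 19 S phase genes and for 67.8% of all genes tested. Without KO/KO replicate 2, and so with fewer KO/KO than WT/WT libraries, it was larger for 9 of 16 mitotic and 4 of 19 S phase genes. The share of all genes was not computed for that comparison. Mki67, the proliferation antigen that coats mitotic chromosomes (chromosome 7, 135689784 to 135716361), stood at 985, 544 and 1188 CPM in KO/KO, against 818, 850.4 and 994 CPM in WT/WT libraries. KO/KO replicate 3 was thus the highest and KO/KO replicate 2 the lowest of the 6, and the log2 fold change was 0.03 (95% interval -0.48 to 0.53). Per length Mki67 was the most abundant of the 35 genes, at 90 CPM per kb in KO/KO and 88.2 in WT/WT. Top2a, the topoisomerase that disentangles sister chromatids (chromosome 11, 98992943 to 99024189), stood at 497, 319.6 and 615 CPM in KO/KO, against 408, 437 and 463 CPM in WT/WT libraries. Both other KO/KO libraries were above all WT/WT libraries, and KO/KO replicate 2 was below them (log2 fold change 0.13, SE 0.19, edgeR adjusted p = 0.695).

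The cyclins and kinase that start mitosis followed the same order of KO/KO libraries. Ccnb1, a B-type cyclin, stood at 88.4, 51.3 and 102 CPM in KO/KO, against 71.7, 83.9 and 94.3 CPM in WT/WT libraries. Its partner Cdk1 stood at 18.3, 11 and 24 CPM in KO/KO, against 17.7, 22.7 and 22.3 CPM in WT/WT libraries. In each, KO/KO replicate 3 was the highest and replicate 2 the lowest of the 6 libraries. Ccnb2 averaged 37.4 ± 16 CPM in KO/KO and 40 ± 4.47 CPM in WT/WT, and Ccna2, the cyclin of S phase and mitotic entry, 73.8 ± 25.8 and 93.5 ± 14.2 CPM in KO/KO and WT/WT. Exosc9 exons on the opposite strand cover 12.5% of the Ccna2 exon bases.

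Spindle and checkpoint genes held the lowest mitotic values, with a median log2 fold change of -0.32 over 10 genes and 9 of them negative. Without KO/KO replicate 2 their median was -0.15, with 8 of them negative. Aurkb, the kinase of the chromosomal passenger complex that corrects faulty attachments (chromosome 11, 69045647 to 69051664), stood at 24, 14.2 and 22.8 CPM in KO/KO, against 27.1, 30.3 and 35.5 CPM in WT/WT libraries. The groups did not overlap, and the difference missed the threshold (log2 fold change -0.61, SE 0.19, edgeR adjusted p = 0.0632). Birc5, the survivin subunit of the same complex, stood at 27.3, 14.1 and 29.8 CPM in KO/KO, against 29.1, 32.9 and 36.8 CPM in WT/WT libraries, where KO/KO replicate 3 overlapped the WT/WT range. Bub1, a checkpoint kinase at kinetochores (chromosome 2, 127801122 to 127831865), stood at 71.5, 52.7 and 65.2 CPM in KO/KO, against 76.5, 82 and 84.8 CPM in WT/WT libraries. All KO/KO libraries were lower, with a log2 fold change of -0.36 (SE 0.12, edgeR adjusted p = 0.0646). Ttk, the kinase that initiates checkpoint signalling (chromosome 9, 83834689 to 83872389), stood at 46.1, 33.2 and 47.9 CPM in KO/KO, against 51.4, 57.9 and 60.4 CPM in WT/WT libraries, again without overlap (log2 fold change -0.42, SE 0.14, edgeR adjusted p = 0.0784). Without KO/KO replicate 2 the log2 fold changes were -0.40 for Aurkb, -0.24 for Bub1 and -0.26 for Ttk, with edgeR adjusted p = 0.0768, 0.111 and 0.118. Over the fits that left a library out the adjusted p ran from 0.045 to 0.213 for Aurkb, from 0.0328 to 0.197 for Bub1 and from 0.0545 to 0.23 for Ttk.

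Other kinetochore, spindle pole and exit genes had log2 fold changes between -0.34 (Plk1) and 0.02 (Cdc20). Cenpf, a large kinetochore protein, averaged 759.8 ± 151 CPM in KO/KO and 942 ± 70.6 CPM in WT/WT (log2 fold change -0.31, SE 0.13), with no overlap between the groups. Cenpe, the kinetochore motor, averaged 389 ± 67 CPM in KO/KO and 406 ± 19.8 CPM in WT/WT, and the checkpoint gene Bub1b 133 ± 22.3 and 150.3 ± 12.3 CPM in KO/KO and WT/WT. Aurka and Plk1, kinases of the spindle poles, averaged 26.1 ± 7.5 and 33.3 ± 9.03 CPM in KO/KO and 29.6 ± 2.16 and 42.1 ± 7.16 CPM in WT/WT. Cdc20, which activates the anaphase-promoting complex, stood at 59.8, 46.2 and 74.8 CPM in KO/KO, against 55.4, 58 and 64.5 CPM in WT/WT libraries, and its log2 fold change of 0.02 (95% interval -0.32 to 0.37) was the only positive one in this group.

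The mitotic promoters held another motif. The cell cycle homology region TTTGAA, searched on both strands, was found in 10 of 14 mitotic and 3 of 17 S phase members, against 20.2% of all genes with a window. CCAAT was found in 13 of the 14 mitotic members. The window of Ttk (chr9:83834439-83834738, plus strand), which DESeq2 called lower, holds 1 TTTGAA match, on the opposite strand, and 2 CCAAT matches. The window of Top2a (chr11:99024140-99024439, minus strand), the highest mitotic fold change, holds 2 and 6. Both are printed 5′ to 3′ on the gene's strand, with these matches in capitals.
Ttk: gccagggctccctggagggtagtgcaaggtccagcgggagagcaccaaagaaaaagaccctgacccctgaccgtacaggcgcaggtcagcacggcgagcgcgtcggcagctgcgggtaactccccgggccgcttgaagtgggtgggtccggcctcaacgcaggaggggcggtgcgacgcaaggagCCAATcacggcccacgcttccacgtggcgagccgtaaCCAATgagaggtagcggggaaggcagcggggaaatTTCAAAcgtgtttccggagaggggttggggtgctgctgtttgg
Top2a: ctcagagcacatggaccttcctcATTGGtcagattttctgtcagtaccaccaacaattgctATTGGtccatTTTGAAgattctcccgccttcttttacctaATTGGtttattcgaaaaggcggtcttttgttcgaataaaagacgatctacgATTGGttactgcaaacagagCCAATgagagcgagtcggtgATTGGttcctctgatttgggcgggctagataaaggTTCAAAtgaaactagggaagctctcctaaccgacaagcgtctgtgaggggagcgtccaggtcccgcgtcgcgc

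Markers of stem and differentiating spermatogonia differed between genotypes. Of 5 markers of differentiating spermatogonia, Kit among them, all were called lower, and they summed to 152, 60.7 and 72.7 CPM in KO/KO, against 283, 270.1 and 339.9 CPM in WT/WT libraries. Mitotic genes summed to 3359.6, 2209 and 3863 CPM in KO/KO, against 3163, 3309 and 3706 CPM in WT/WT libraries. KO/KO replicate 2 had the lowest mitotic sum and the lowest sum of differentiation markers of the 6 libraries. KO/KO replicate 3 had the highest mitotic sum and the second lowest sum of differentiation markers. Abundant genes weigh most in such sums, and Mki67 and Top2a stood at 1188 and 615 CPM in KO/KO replicate 3. That library was the highest of the 6 for 8 of 16 mitotic genes, against 4299 of all 21314 genes. Its median log2 ratio to the WT/WT mean over the mitotic genes was 0.08, against 0.12 in WT/WT replicate 3. S phase genes summed to 2127, 1571 and 2092 CPM in KO/KO, against 1887, 2021 and 2294 CPM in WT/WT libraries. Of 5 markers of undifferentiated spermatogonia 3 were called higher and 1, Zbtb16, lower, and their sum was 995, 1356 and 1168 CPM in KO/KO, against 971, 925 and 832 CPM in WT/WT libraries. Id4, whose reporter set the gate, stood at 86.8, 176 and 159 CPM in KO/KO, against 37.0, 38.1 and 38.5 CPM in WT/WT libraries. Both this sum and Id4 were highest in KO/KO replicate 2. The part of these shifts in the cell cycle values was not tested.

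**Figure D3:**
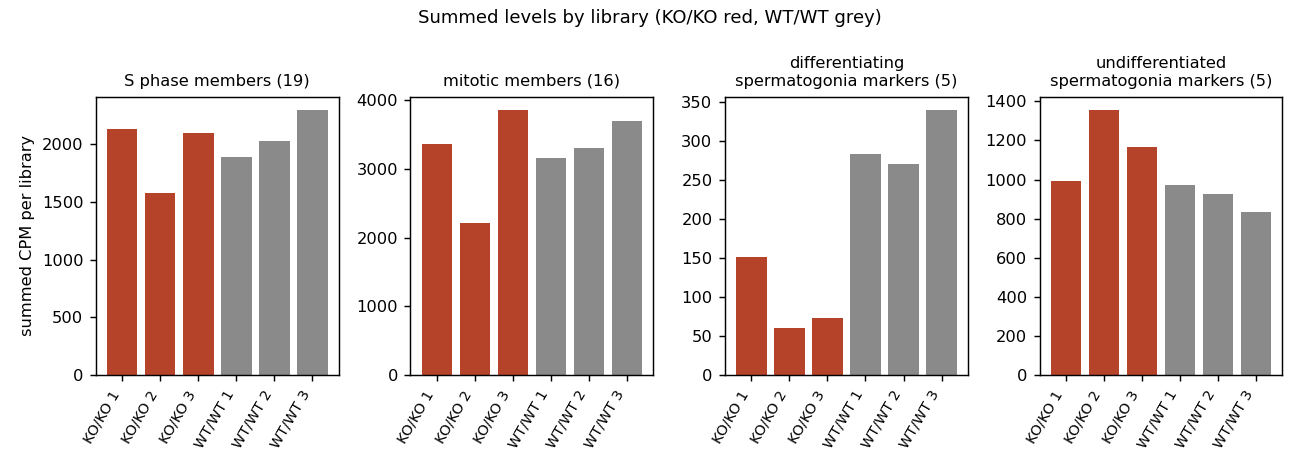
Summed CPM per library of the 19 S phase genes, the 16 mitotic genes, and 5 markers each of differentiating and undifferentiated spermatogonia (y axes start at 0, KO/KO in red on the left and WT/WT in grey on the right of each panel). The S phase and mitotic sums are lowest in KO/KO replicate 2, at 1571 and 2209 CPM, while the differentiation sums are low in all KO/KO libraries.

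The rest of the replication machinery gave few calls. Of 49 other replication genes 1 was called higher and 1 lower, where 14.8% of all genes were called, and their log2 fold changes had a median of -0.09, or 0.03 once KO/KO replicate 2 was left out. Chaf1b, a subunit of the chromatin assembly factor that deposits histones behind the fork, stood at 20.1, 11.3 and 21.2 CPM in KO/KO, against 28.6, 29.5 and 36.5 CPM in WT/WT libraries. It fell in KO/KO by 0.85 on the log2 scale (SE 0.22, edgeR adjusted p = 0.0289), a call lost without any 1 of the WT/WT libraries (adjusted p between 0.0592 and 0.113). Pold4, a small subunit of polymerase delta, rose at low levels, with 2.93, 3.12 and 4.3 CPM in KO/KO, against 1.67, 1.02 and 1.3 CPM in WT/WT libraries (log2 fold change 1.38, edgeR adjusted p = 0.00961). Exons of another gene on the same strand cover 24.6% of its exon bases, and without WT/WT replicate 2 the gene no longer passed (adjusted p = 0.0543). KO/KO replicate 2 was the lowest library for 42 of the 49 genes, against 23% of all genes tested.

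Among 44 other mitotic genes 1 was called higher and 3 lower, where 8.33% of all genes were called higher and 6.42% lower. The list median was -0.17 on the log2 scale, or -0.01 once KO/KO replicate 2 was left out. That replicate was the lowest library for 34 of the 44 genes, against 23% of all genes tested. Cdc25b, a phosphatase that activates Cdk1 at mitotic entry (chromosome 2, 131186949 to 131198497), stood at 26.6, 32.8 and 38.3 CPM in KO/KO, against 13.6, 12.5 and 13.5 CPM in WT/WT libraries. It rose by 1.30 on the log2 scale (SE 0.14, edgeR adjusted p = 0.00068), in every KO/KO library including replicate 2, and kept its call in each fit that left a library out. Hmmr, a spindle assembly factor, fell to 39.4, 23.9 and 42.5 CPM in KO/KO, against 51.8, 59.6 and 66.4 CPM in WT/WT libraries (log2 fold change -0.75, SE 0.19, edgeR adjusted p = 0.0304). The centrosomal kinase gene Nek2 and the condensin gene Smc2 fell by 0.39 and 0.36 on the log2 scale. Calls for Hmmr were lost without WT/WT replicate 2 or 3 (adjusted p = 0.0989 and 0.114). Those for Nek2 and Smc2 were lost without KO/KO replicate 2 (adjusted p = 0.0775 and 0.0616) and without each WT/WT replicate, Nek2 also without KO/KO replicate 1 (adjusted p = 0.0591) and Smc2 also without KO/KO replicate 3 (adjusted p = 0.0521).

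Of 18 genes that control cell cycle transcription none was called higher and 2 lower, against 8.33% and 6.42% of all genes. The list median was -0.06 on the log2 scale, or -0.04 once KO/KO replicate 2 was left out. That replicate was the lowest library for 10 of the 18 genes, against 23% of all genes tested. Mybl2, which encodes B-Myb, stood at 65.6, 46.5 and 57 CPM in KO/KO, against 80.9, 79 and 85.1 CPM in WT/WT libraries. It fell by 0.54 on the log2 scale (SE 0.12, edgeR adjusted p = 0.0168). The activator gene E2f3 fell to 35.6 ± 2.92 CPM in KO/KO, against 47.3 ± 4.11 CPM in WT/WT (log2 fold change -0.41, SE 0.11, edgeR adjusted p = 0.0294). Both calls were lost without each WT/WT library, with adjusted p between 0.056 and 0.073 for Mybl2 and between 0.0724 and 0.131 for E2f3, and that of E2f3 also without KO/KO replicate 2 (adjusted p = 0.0577) or 3 (adjusted p = 0.0696). Foxm1 did not pass and was picked for mention with its values known. It stood at 108, 58.3 and 110.3 CPM in KO/KO, against 136, 129 and 163 CPM in WT/WT libraries (log2 fold change -0.63, SE 0.21, edgeR adjusted p = 0.0738).

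**Figure D4:**
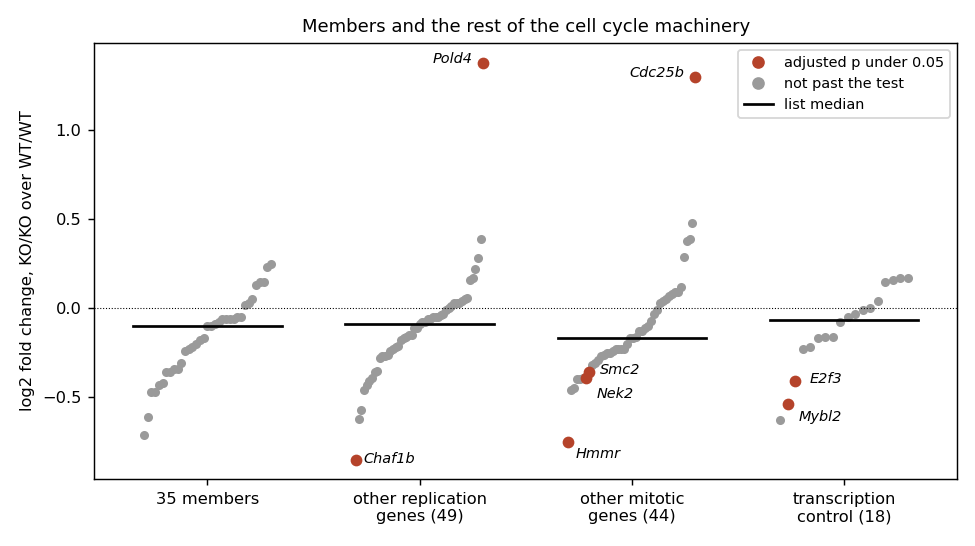
Log2 fold change between KO/KO and WT/WT (y axis) for the 35 genes and for 3 further lists of cell cycle genes (x axis), each gene a point, red where the edgeR adjusted p was under 0.05 and grey otherwise, with a bar at the list median. None of the 35 genes is red, and Cdc25b and Pold4 stand above all others at 1.30 and 1.38.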

How the data were processed

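Values are unnormalized read counts for each gene and repeat family, as deposited by the authors. The submitters' processing notes name STAR 2.7.0a, featureCounts 1.5.1 and the build mm10. Libraries came from a stranded total RNA kit, per the labels' protocols. Neither states the annotation, how strand was handled or what was done with multimapping reads. Repeat families took between 14.1% and 15.5% of all counts and were left out, as were their rows in library sizes. Libraries of 1 genotype differed by more than sampling noise in every pair. Chi-square per degree of freedom was 12.4 to 14.8 within WT/WT and 36.3 to 49.2 within KO/KO. Between KO/KO replicate 1 and the WT/WT libraries it was 34.5 to 35.4, against 36.3 and 37.1 between that replicate and KO/KO replicates 2 and 3.

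Genes were tested with edgeR 4.0.16 (R 4.3.3, TMM, filterByExpr, quasi-likelihood F test, genotype as the only term), with two-sided p-values, Benjamini-Hochberg adjusted over all genes tested. The SE is the size of the log2 fold change over the square root of F, and intervals are at 95%. The fit was tested on simulated data. The settings changed were the scaling (RLE or upper quartile factors), the filter (none, or 1 CPM in 3 libraries), each library left out, a replicate block, DESeq2 1.42.0, limma-voom (limma 3.58.1) and a threshold of 0.1. Members and lists were chosen with earlier results of these data known. The text names all members, and of other lists every gene past the test. Coordinates and exon lengths are from GENCODE M21 on GRCm38, the assembly of mm10, and 3 listed genes were matched by RefSeq synonyms. Plots used matplotlib 3.10.9.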

Additional observations from a re-analysis of the deposited data

How the results depend on the processing

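Members called higher numbered 0 in all settings that kept the 6 libraries and 0 to 1 with single libraries left out. Members called lower numbered 10 with no filter, 4 with DESeq2, 1 with limma-voom, 5 at a threshold of 0.1, 2 with the replicate block (Cdc6 and Aurkb, where 1107 of all 21314 genes were lower) and 0 to 3 with single libraries left out. The other factors and the 1 CPM filter changed no member's call. Between KO/KO and WT/WT libraries of the same number, correlations of deviations were -0.0862, 0.0381 and 0.0185 for numbers 1, 2 and 3. Not every library correlated best with its own number. With 3 libraries a genotype, these values cannot settle whether the numbers pair the samples. Over all genes, 2087 were lower at the threshold of 0.1, and leaving out single libraries gave 814 to 1985 higher and 560 to 1380 lower.

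Other replication genes called lower numbered 8 with no filter, 6 with DESeq2, 4 with limma-voom, 3 with the block, 2 with upper quartile factors and 0 to 4 with libraries left out, and those higher 2 with no filter and 0 to 3. Other mitotic genes called lower numbered 8 with no filter, 5 with the block and 0 to 3 with libraries left out, and those higher 3 with no filter, 2 with DESeq2 and 1 to 4. Transcription control genes called lower numbered 3 with no filter and with DESeq2, 2 in the other settings that kept the 6 libraries, and 0 to 2 with libraries left out. E2f3 was not called with the block (adjusted p = 0.0543). Over all genes, lower calls numbered 1914 with no filter (5.24%), 1703 with DESeq2 (7.99%) and 1403 with limma-voom (6.58%). Of 21314 genes, 1107 were lower with the block and 1319 with upper quartile factors. Higher calls over all genes numbered 2575 with no filter and 2230 with DESeq2. Causes were not tested.

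Signs of uncalled members changed. Mki67 was at -0.04 with the block and -0.03 with limma-voom, and Cdc20 at -0.0011 with the block. With libraries left out, log2 fold changes ran from -0.07 to 0.22 for E2f1, -0.20 to 0.19 for E2f2, -0.13 to 0.08 for Mcm5, -0.18 to 0.09 for Cdc45, -0.18 to 0.07 for Rrm1, -0.16 to 0.07 for Tyms, -0.20 to 0.29 for Mki67, -0.08 to 0.35 for Top2a, -0.24 to 0.19 for Ccnb1, -0.41 to 0.20 for Ccnb2, -0.51 to 0.02 for Cdk1, -0.15 to 0.18 for Cdc20 and -0.16 to 0.07 for Cenpe. Depth was ample for the members, of which none averaged under 5.4 CPM in either genotype, and with 3 libraries a genotype the intervals given in the report bound what could be seen.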
